A study of Homo sapiens with 6 samples.

Results

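The genes described here are 10 members of the YAP-TEAD pathway and its targets, chosen by symbol from a table of 16362 genes: YAP1, WWTR1, TEAD1, TEAD3, TEAD4, LATS1, LATS2, AMOTL2, CYR61 (CCN1) and CTGF (CCN2). All 10 were in the table. Expression was measured in cells labelled MDA-MB-231, an established human breast cancer line, in 3 libraries from cells that received CTI-2 for 24 h and in 3 control libraries whose labels give no agent. CTI-2 is a code name, and no source used here gives its dose or says whether controls had a vehicle. Total RNA was made into cDNA, amplified and sequenced as long reads with Oxford Nanopore technology.

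YAP1 and TAZ, the protein of WWTR1, are transcriptional co-activators that do not bind DNA themselves and act through the TEAD transcription factors. In the Hippo pathway the LATS kinases phosphorylate YAP1 and TAZ, which keeps them out of the nucleus and promotes their breakdown. CYR61, CTGF, AMOTL2 and LATS2 are classic targets of YAP and TEAD, and AMOTL2 and LATS2 in turn restrain YAP. The line MDA-MB-231 is commonly described as carrying an inactivating mutation of NF2, an upstream activator of LATS, and as having active YAP and TAZ.

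Library totals were 2208261 to 3153469 counts with CTI-2 and 2349758 to 3929532 counts in controls, so that 3 counts amounted to between 0.763 and 1.36 CPM (counts per 1000000 counts of the library). Without molecular identifiers, amplified reads are not independent molecules, and intervals from counts cover counting error only. Whether the libraries of a group came from separate cultures is unstated, so p-values may reflect technical spread alone. In bulk RNA, fewer cells with a transcript and less of it per cell cannot be told apart. Markers of the line were mixed. CD44 (339 to 629 counts), MSN, CAV1 and PLAU were read in all 6 libraries, ESR1 had at most 2 counts and CDH1 at most 1 count in any library. AXL, also commonly abundant in this line, had only 7 to 22 counts. VIM, commonly abundant in this line, had 32 to 74 counts, and CDKN2A, commonly described as deleted in it, had 562 to 1737 counts. MTAP, its neighbour and commonly lost with it, had 32 to 50 counts, and EPCAM, an epithelial gene listed as absent or low, had 18 to 40 counts. CDKN2A overlaps a counted gene on the opposite strand (AL359922.1) and MTAP the same gene on its own strand, and no source used here says whether strand was used in counting. The identity of the cells was not tested.

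The CTGF promoter holds repeated matches to a TEAD-type motif, and is printed because CTGF is the textbook target and was nearly unread here. The 250 bases before the RefSeq start of CTGF (listed as CCN2; GRCh38.p14, chr6:131951373-131951622, minus strand) read as follows, with the TEAD-type motif CATTCC, or GGAATG on the other strand, in capitals:
CTGF promoter: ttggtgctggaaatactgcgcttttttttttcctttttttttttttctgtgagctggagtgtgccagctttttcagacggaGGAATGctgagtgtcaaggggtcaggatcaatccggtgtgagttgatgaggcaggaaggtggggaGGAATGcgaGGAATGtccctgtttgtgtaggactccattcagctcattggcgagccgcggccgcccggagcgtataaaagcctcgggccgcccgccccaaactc
The motif occurs 3 times in this window, at 169, 104 and 95 bases before the start. At least 3 matches were found in 0.0826% of all 35116 RefSeq promoter windows of this length, and at least 1 in 11.9% of them. Promoter windows were at hand for 7 of the 10 members, 10 windows in all, and 3 held the motif: that of CTGF, that of YAP1 (1 match, 162 bases before the start) and 1 of the 2 windows of AMOTL2 (1 match, 69 bases before the start). The window of LATS2, also a classic target, had no match, and no window was at hand for CYR61, TEAD1 or TEAD4. So few windows cannot show whether the motif separates targets from other members. None of the 10 windows held the AP-1 motif TGACTCA or TGAGTCA, which 4.2% of all windows hold. A match is a description of letters and not a measured binding site.

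None of the members changed past the threshold after CTI-2. Of the 10, 7 had enough counts for edgeR's quasi-likelihood test, and 0 of those 7 had an adjusted p under 0.05, against 8.03% of all 9848 tested genes (791 genes, 334 higher and 457 lower). At an unadjusted p under 0.05 the count was again 0 of 7, against 23.9% of all tested genes. DESeq2 called 0 of the 3 members for which it gave an adjusted p, and limma-voom called 0 of 7. Of the 7, 4 had a positive and 3 a negative log2 fold change, between -0.22 and 0.39, with a median of 0.13 beside -0.01 over all tested genes. The 95% interval of the fold change lay within 2-fold in either direction for 6 of the 7 and reached 2-fold lower for TEAD3, so these data bound the changes without showing that there were none.

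**Figure D1:**
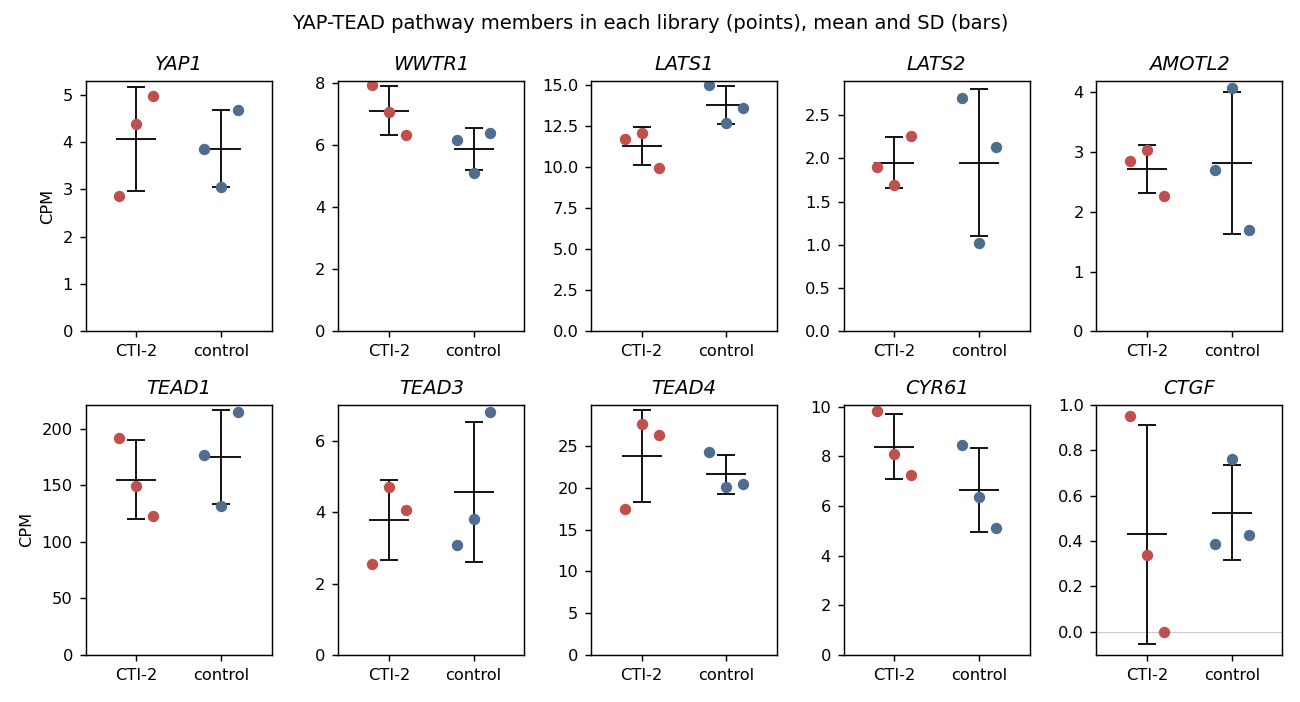
CPM of each member in each library (points; CTI-2 left, control right), with the mean and SD of 3 libraries as bars; each panel has its own scale. Only LATS1 had groups that did not overlap, 9.96 to 12.1 CPM with CTI-2 and 12.7 to 15.0 CPM in controls.

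The co-activator genes were read rarely. YAP1 (ENSG00000137693; chromosome 11, 102110461 to 102233423, plus strand, GENCODE 29 on GRCh38) had 9, 13 and 11 counts with CTI-2 and 10, 12 and 11 counts in controls, or 2.85, 4.38 and 4.98 CPM with CTI-2 and 3.85, 3.05 and 4.68 CPM in controls. The groups overlapped fully. The log2 fold change of YAP1 was 0.13 (SE 0.39, 95% interval -0.66 to 0.92, edgeR adjusted p = 0.884). WWTR1 (ENSG00000018408) had 7.93, 7.08 and 6.34 CPM with CTI-2 and 6.16, 5.09 and 6.38 CPM in controls. The CTI-2 libraries were the higher ones except that the lowest of them lay just under control 3. The log2 fold change of WWTR1 was 0.35 (SE 0.30, 95% interval -0.25 to 0.96, edgeR adjusted p = 0.501). YAP1 took 36.2% ± 8.91 of the reads of the pair with CTI-2 and 39.4% ± 2.53 in controls (SD, n = 3 each). Together the pair stood at 11.2 ± 0.361 CPM with CTI-2 and 9.75 ± 1.50 CPM in controls.

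TEAD1 was the most abundant member by far. TEAD1 (ENSG00000187079), one of the 4 TEAD factors that give YAP and TAZ their DNA contact, had 606, 443 and 271 counts with CTI-2 and 459, 520 and 506 counts in controls. Per library this was 192, 149 and 123 CPM with CTI-2 and 177, 132 and 215 CPM in controls. The ranges of the groups overlapped, with the lowest value in CTI-2 library 3 and the highest in control 3. The log2 fold change was -0.10 (SE 0.16, 95% interval -0.45 to 0.25, edgeR adjusted p = 0.766), which leaves fold changes from 0.73 to 1.19 within the interval. Its sign turned to 0.03 without CTI-2 library 3 and to 0.04 without control 3.

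TEAD4 (ENSG00000197905; chromosome 12, 2959330 to 3040673, plus strand, GENCODE 29 on GRCh38) was next among the TEAD genes of the list. It had 17.4, 27.6 and 26.3 CPM with CTI-2 and 24.3, 20.1 and 20.4 CPM in controls. The 2 highest values and the lowest value all came from CTI-2 libraries, so the groups overlapped. Its log2 fold change was 0.18 (SE 0.19, 95% interval -0.21 to 0.56, edgeR adjusted p = 0.615). TEAD3 (ENSG00000007866; chromosome 6, 35473597 to 35497076, minus strand, GENCODE 29 on GRCh38) had 8, 14 and 9 counts with CTI-2 and 8, 15 and 16 counts in controls. This came to 2.54, 4.72 and 4.08 CPM with CTI-2 and 3.08, 3.82 and 6.81 CPM in controls. Control 3 alone stood above the rest. The log2 fold change of TEAD3 was -0.20 (SE 0.39, 95% interval -1.0 to 0.60, edgeR adjusted p = 0.801), and its sign turned to 0.04 without CTI-2 library 1 and to 0.10 without control 3.

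With TEAD2, the remaining family gene, the TEAD genes together held 205 ± 26.5 CPM with CTI-2 and 219 ± 44.8 CPM in controls (SD, n = 3 each). TEAD1 took 82.7, 73.0 and 68.6% of these reads with CTI-2 and 78.6, 77.0 and 82.5% in controls. The exact binomial 95% interval was 79.7 to 85.3% in CTI-2 library 1 and 63.8 to 73.2% in CTI-2 library 3, so these 2 libraries of one group differed by more than counting error. Scaled per kb of the longest principal transcript in GENCODE 29, TEAD1 made up 65.5% ± 8.86 of the family with CTI-2 and 71.0% ± 3.92 in controls.

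**Figure D2:**
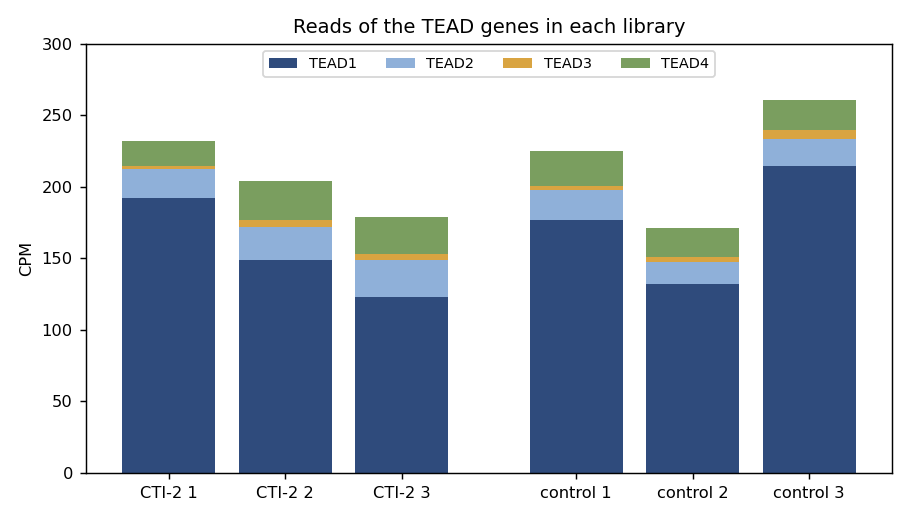
CPM of TEAD1, TEAD2, TEAD3 and TEAD4, stacked, in each CTI-2 and control library. TEAD1 is the largest part of every bar, and the bar heights of the CTI-2 libraries (179 to 232 CPM) lie within those of the controls (172 to 261 CPM).

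Of the kinase genes, LATS1 separated the groups but was not called. LATS1 (ENSG00000131023; chromosome 6, 149658153 to 149718256, minus strand, GENCODE 29 on GRCh38) had 37, 36 and 22 counts with CTI-2 and 39, 50 and 32 counts in controls. In CPM it had 11.7, 12.1 and 9.96 with CTI-2 and 15.0, 12.7 and 13.6 in controls. Every control lay above every CTI-2 library, a separation that 28.8% of all tested genes showed in either direction and 1 of the 7 tested members. The log2 fold change of LATS1 was -0.22 (SE 0.22, 95% interval -0.67 to 0.23, edgeR adjusted p = 0.579). The two-sided exact permutation test of its CPM gave p = 0.1, the smallest that 3 against 3 libraries can give. Every gene whose groups do not overlap gets this value, so it adds nothing to the separation. LATS2 (ENSG00000150457; chromosome 13, 20973032 to 21061547, minus strand, GENCODE 29 on GRCh38), its close relative and a YAP target, had 6, 5 and 5 counts with CTI-2 and 7, 4 and 5 counts in controls and was below the low-count filter. The pooled 16 counts in each group gave a CTI-2 over control ratio of 1.07 with an exact 95% counting interval of 0.499 to 2.28.

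AMOTL2 (ENSG00000114019; chromosome 3, 134355874 to 134375479, minus strand, GENCODE 29 on GRCh38) encodes a junction-associated angiomotin that holds YAP in the cytoplasm and is itself induced by YAP. It had 9, 9 and 5 counts with CTI-2 and 7, 16 and 4 counts in controls, all below the filter for the test. The controls held both the highest and the lowest value, 4.07 and 1.70 CPM, around 2.26 to 3.03 CPM with CTI-2. The ratio of pooled counts was 0.908 with an exact 95% counting interval of 0.497 to 1.64.

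The secreted matricellular targets were low in both groups. CYR61 (ENSG00000142871; chromosome 1, 85580761 to 85583962, plus strand, GENCODE 29 on GRCh38), which encodes an integrin-binding matrix protein, had 31, 24 and 16 counts with CTI-2 and 22, 25 and 12 counts in controls. In CPM it had 9.83, 8.09 and 7.25 with CTI-2 and 8.47, 6.36 and 5.11 in controls. The highest value was in a CTI-2 library and the 2 lowest were in controls, but control 1 lay above 2 of the CTI-2 libraries. The log2 fold change of CYR61 was 0.39, the largest among the 7 tested members (SE 0.28, 95% interval -0.18 to 0.97, edgeR adjusted p = 0.423), or 1.31-fold with an interval of 0.88 to 1.95. CTGF (ENSG00000118523; chromosome 6, 131948176 to 131951373, minus strand, GENCODE 29 on GRCh38), the connective tissue growth factor gene whose promoter is printed above, had 3, 1 and 0 counts with CTI-2 and 1, 3 and 1 counts in controls. A count of 0 in CTI-2 library 3 allows up to 1.36 CPM. The pooled 4 counts with CTI-2 and 5 counts in controls gave a ratio of 0.853 with an exact 95% counting interval of 0.169 to 3.96, so a difference in CTGF was not detectable at this depth. On the log2 scale, the ratio of its mean CPM was -0.29, and it ran from -1.64 without CTI-2 library 1 to 0.30 without CTI-2 library 3.

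**Figure D3:**
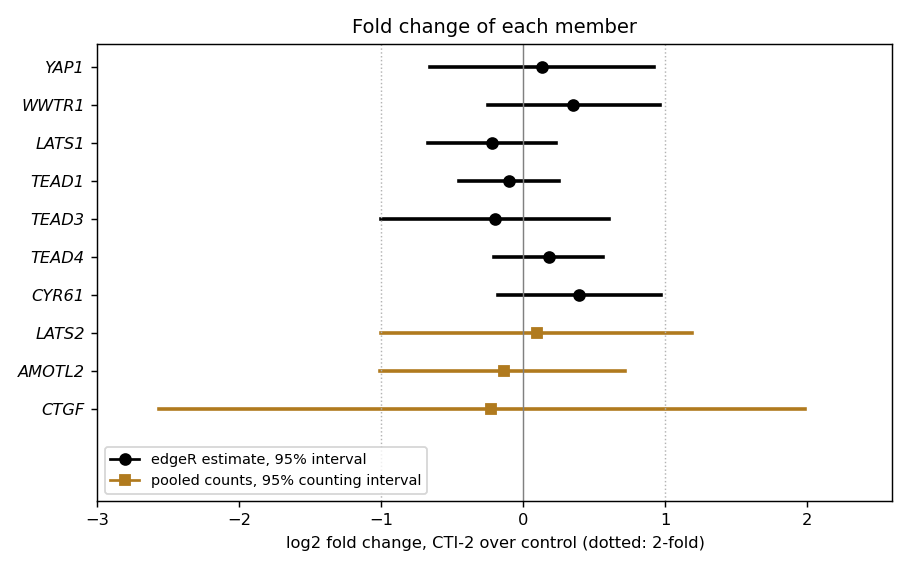
Log2 fold change of each member, CTI-2 over control, with its 95% interval. Circles are edgeR estimates for the 7 tested members; squares are ratios of pooled counts with counting intervals for LATS2, AMOTL2 and CTGF, which were below the filter. Every interval includes 0, and that of CTGF is the widest.

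Per kb of the longest principal transcript, the order of the members with CTI-2 was TEAD1 (50.3 ± 11.4 CPM per kb), TEAD4 (14.1 ± 3.27), CYR61 (3.66 ± 0.576), LATS1 (1.50 ± 0.154), WWTR1 (1.41 ± 0.158), TEAD3 (1.27 ± 0.376), YAP1 (0.756 ± 0.204), AMOTL2 (0.605 ± 0.0897), LATS2 (0.354 ± 0.0531) and CTGF (0.184 ± 0.206; SD, n = 3 each). In controls the order was the same except that TEAD3 (1.53 ± 0.662 CPM per kb) stood above WWTR1 (1.17 ± 0.138). With CTI-2 the neighbours LATS1, WWTR1 and TEAD3, the neighbours YAP1 and AMOTL2, and the neighbours LATS2 and CTGF differed by less than the larger of their SDs. These are long reads, each meant to stand for a molecule, and on the unscaled CPM scale LATS1 lay above CYR61 in both groups. TEAD1 stood above 93.5% of all genes in the table by mean CPM over the 6 libraries, TEAD4 above 70.2%, YAP1 above 42.1% and CTGF above 17.2%. Set against the tested genes alone, TEAD1 stood above 89.2%, TEAD4 above 50.5% and YAP1 above 3.87%.

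The members showed no common pattern over the 6 libraries. Among the 21 pairs of tested members, Pearson's r of log2 CPM ran from -0.85 (TEAD3 and CYR61) to 0.70 (YAP1 and TEAD4), with 7 positive and 14 negative values and a median of -0.10. These values describe 6 libraries of unequal sequencing depth that span CTI-2 and control, at counts where sampling noise is large. The tested genes most like CYR61 were IWS1 (r = 0.989), BIN3 (r = 0.988) and ARL6IP6 (r = 0.982), and 82 of 9847 other genes had r over 0.9. For CTGF they were RTN2 (r = 0.992), SPTY2D1 (r = 0.986) and AC120057.2 (r = 0.983), on 0 to 3 counts of CTGF.

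Beyond the members, 5 lists of related genes were examined in the same fit. Of further YAP and TAZ target genes, 15 of 22 were tested: 1 rose (GADD45A), 1 fell (NT5E) and 13 did not pass. Of the 15, 10 had a positive and 5 a negative log2 fold change, with a median of 0.17. Over all tested genes 4795 were positive and 5053 negative, with a median of -0.01. At an unadjusted p under 0.05 in edgeR there were 5 of the 15, beside 23.9% of all tested genes. The groups did not overlap for 4 of the 15, beside 28.8%. The shares of tested genes called higher and lower were 3.39% and 4.64% over the whole table. GADD45A, a stress-induced growth arrest gene that also responds to p53, had 25.1, 26.6 and 24.5 CPM with CTI-2 and 11.9, 14.5 and 14.5 CPM in controls. Every CTI-2 library lay above every control, and GADD45A was 1.91-fold higher (log2 fold change 0.93, SE 0.19, edgeR adjusted p = 0.00189). NT5E, which encodes the cell-surface enzyme CD73 that makes adenosine, had 11.7, 12.8 and 14.0 CPM with CTI-2 and 18.9, 21.1 and 21.7 CPM in controls. The groups of NT5E did not overlap, and its log2 fold change was -0.64 (SE 0.20, edgeR adjusted p = 0.0407). The call of NT5E was lost whichever library was left out (adjusted p 0.0531 to 0.150, log2 fold change -0.71 to -0.56) and in DESeq2 (adjusted p = 0.189, log2 fold change -0.62).

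Other targets of the same list did not pass, and those named here were chosen after their values were seen. The receptor tyrosine kinase gene AXL stood at 6.02 ± 1.33 CPM with CTI-2 and 3.34 ± 0.313 CPM in controls (log2 fold change 0.86, edgeR adjusted p = 0.126). Its groups did not overlap, as for 28.8% of all tested genes. AREG, the gene of an EGF receptor ligand, stood at 13.1 ± 1.81 CPM with CTI-2 and 8.30 ± 2.55 CPM in controls (log2 fold change 0.64, edgeR adjusted p = 0.108). The groups of AREG did not overlap either. MYOF and BIRC5, the targets with the most reads, had log2 fold changes of 0.04 and 0.17. ANKRD1, with CTGF and CYR61 the third commonly used reporter gene of YAP activity, had 0 to 2 counts per library. Further genes of the CTGF and CYR61 family were near 0: CCN3 had 1 to 4 counts and CCN6 0 or 1 count per library. CCN5 (WISP2 in the table), the only tested relative outside the members, had 25.1, 24.6 and 26.3 CPM with CTI-2 and 34.3, 24.2 and 34.5 CPM in controls (log2 fold change -0.22, edgeR adjusted p = 0.447).

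Of upstream Hippo genes 19 of 26 were tested. EdgeR's test called 0 of these 19, where its share over all tested genes was 8.03%. It gave 2 of them an unadjusted p under 0.05, where the share over all tested genes was 23.9%. Limma-voom and DESeq2 made 0 calls in this list. The log2 fold change was positive for 8 genes and negative for 11. Its median was -0.07, and that over all tested genes was -0.01. Among the alternatives, 1 passed without control 2: SCRIB, a cell polarity gene named after its values were seen, at a log2 fold change of -0.93 (edgeR adjusted p = 0.0172), against -0.74 with all libraries (edgeR adjusted p = 0.0682). The 3 with the most reads were MAP4K4, MOB1A and STK3. MAP4K4, a kinase that can activate LATS, stood at 109 ± 6.35 CPM with CTI-2 and 118 ± 6.53 CPM in controls (log2 fold change -0.06, edgeR adjusted p = 0.774). MOB1A, a LATS co-activator gene, had 48.5, 48.2 and 59.8 CPM with CTI-2 and 46.2, 46.1 and 39.6 CPM in controls (log2 fold change 0.27, edgeR adjusted p = 0.234). Its groups did not overlap, as for 28.8% of all tested genes. STK3, the gene of the MST2 kinase, stood at 23.8 ± 2.13 CPM with CTI-2 and 24.4 ± 3.47 CPM in controls (log2 fold change 0.01, edgeR adjusted p = 0.989). NF2 itself, added after its values were seen, had 15, 12 and 7 counts with CTI-2 and 16, 22 and 13 counts in controls (log2 fold change -0.45, edgeR adjusted p = 0.442). In CPM its groups did not overlap, at 4.76, 4.04 and 3.17 with CTI-2 and 6.16, 5.6 and 5.53 in controls. The groups did not overlap for 4 of the 19 tested genes of this list, SCRIB among them, beside 28.8% of all tested genes.

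Among TEAD partners 6 of 11 were tested and 0 were called in edgeR, DESeq2 or limma-voom, beside 8.03% of all tested genes in edgeR. At an unadjusted p under 0.05 in edgeR there were 2, beside 23.9% of all tested genes. Those 2 were VGLL4 and TEAD2. VGLL4, which competes with YAP for TEAD, had 28.2, 31.7 and 29.4 CPM with CTI-2 and 42.4, 35.1 and 45.1 CPM in controls. All controls lay above all CTI-2 libraries, a separation that 28.8% of all tested genes showed in either direction. The log2 fold change of VGLL4 was -0.39 (SE 0.15, edgeR adjusted p = 0.0985). Without control 2 it passed, at -0.45 (edgeR adjusted p = 0.0496). TEAD2 had 20.3, 22.9 and 25.8 CPM with CTI-2 and 20.8, 15.5 and 18.3 CPM in controls (log2 fold change 0.39, SE 0.19, edgeR adjusted p = 0.196). Both genes overlap counted genes on the opposite strand (ATG7 for VGLL4, CD37 and DKKL1 for TEAD2), so their counts are uncertain.

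Of other YAP regulators, among them 14-3-3 proteins that hold phosphorylated YAP in the cytoplasm and kinases of the Src family, 15 of 16 were tested. Of these 1 fell and 14 did not pass, beside 8.03% of all tested genes called. At an unadjusted p under 0.05 there were 6, beside 23.9% of all tested genes, and the groups did not overlap for 7, beside 28.8%. The fitted log2 fold change was positive for 6 and negative for 9, with a median of -0.10, beside -0.01 over all tested genes. The number called in this list was 0 without CTI-2 library 1 or 2, 4 without control 2, 2 in DESeq2 and 2 in limma-voom. The gene that fell did not pass in DESeq2 or without the low-count filter, so calls there were of other genes.

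**Figure D4:**
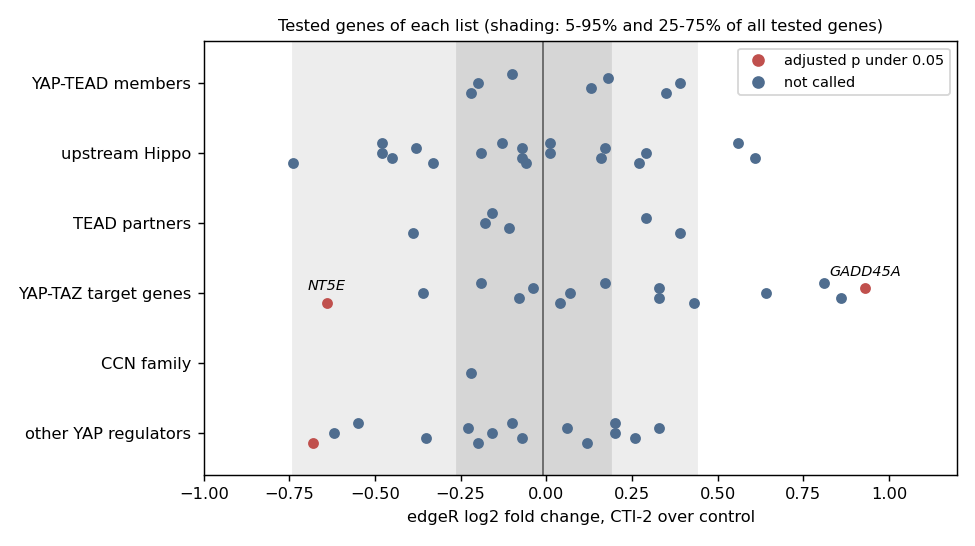
EdgeR log2 fold change, CTI-2 over control, of each tested gene in the member list and the 5 related lists (points), over shading for the central ranges of all tested genes (-0.74 to 0.44 for the 5th to 95th percentile). Called genes are red, GADD45A and NT5E among them; all 7 tested members lie between -0.22 and 0.39.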

How the data were processed

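The 6 libraries were made from Trizol-extracted RNA with a cDNA-PCR kit of Oxford Nanopore, as the labels' protocols say. The submitters' processing notes name minimap2, and no source used here gives its version, the build, annotation, counter, strand use or filters. Per gene, the authors deposited read counts as whole numbers, and CPM that equal the counts over the library totals (largest deviation 4e-11). CPM are printed as deposited. The deposited gene length equals the GENCODE 29 span for 80.9% of 14408 Ensembl genes, and coordinates are given only for such genes.

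CTI-2 was compared with control by the quasi-likelihood test of edgeR 4.0.16 (R 4.3.3; filterByExpr, TMM, robust fit) with Benjamini-Hochberg adjustment over 9848 genes and a threshold of 0.05. The SE is the fold change over the root of the F statistic, and the 95% interval from the SE and the test's degrees of freedom. The fit was tested on simulated data. Members below the filter got ratios of pooled counts with exact 95% intervals. Members and lists were chosen with earlier results of these data known. Named genes are all members, up to 4 called genes per direction of each list or its 3 of highest CPM, the 3 genes most like CYR61 and CTGF, and the line markers; others are marked as chosen later. Some genes that this rule takes are counted in their lists but not reported here by name, so 1 list has none named. Alternatives were DESeq2 1.42.0, its size factors in edgeR, library totals, other count filters (none, or 20 counts in 3 libraries), limma 3.58.1 (log2(CPM + 1), and voom), a block for replicate numbers, removal of each library's trend with median transcript length (lowess span 0.3), and leaving out each library. Same-group libraries differed by more than sampling noise (chi-square over degrees of freedom of 1.68 to 6.03).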

Additional observations from a re-analysis of the deposited data

How the results depend on the processing

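The number of members called was 0 under all 15 alternatives, with adjusted p of the tested members between 0.255 and 0.995. Not every member had a test in each: YAP1 and TEAD3 fell below the filter of 20 counts in 3 libraries. DESeq2 gave no adjusted p for YAP1, WWTR1, TEAD3 and CYR61. Signs turned, without a call, for YAP1 (-0.02 without CTI-2 library 3, in a range of -0.02 to 0.35 when a library was left out), TEAD1 (0.03 and 0.04, in a range of -0.29 to 0.04) and TEAD3 (0.04 and 0.10, in a range of -0.42 to 0.10) on the log2 scale, for the ratios of mean CPM of CTGF (-0.29, with 0.30 and 0.08 turned) and AMOTL2 (-0.06, with 0.06 and 0.31 turned), and among related genes for MAP4K4 (0.01 with the length trend removed) and STK3 (-0.04 with library totals, -0.02 with 20 counts in 3 libraries, -0.03 with limma on log2 CPM, -0.02 with the length trend removed and -0.10 to 0.09 when a library was left out, with -0.01, -0.05 and -0.10 as the turned values). The cause was not tested. Over all genes the count of calls was 791, against 498 in DESeq2 (47.0% lower, against 57.8%) and 400 to 1610 when a library was left out; the 1610 came without control 2 and were 40.6% lower. Related genes called numbered 3, against 5 with limma on log2(CPM + 1) and 1 to 9 when a library was left out, with 9 without control 2 and 1 without CTI-2 library 1 or 2. GADD45A passed under all 15 alternatives (adjusted p up to 0.0167).

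With the replicate block there were 942 calls over all genes and 0 members called. Deviations of same-numbered libraries from their group means had correlations of -0.049, 0.007 and -0.124. Counting noise enters these deviations, so they cannot show whether equal numbers share a culture or day, which the labels do not say. Low counts set the limit for CTGF, LATS2 and AMOTL2, and the intervals of YAP1 and TEAD3 run from 0.633 to 1.89 and from 0.50 to 1.51 in fold change.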
